A study of Homo sapiens with 6 samples.

Results

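The cytosolic heat shock proteins were followed over BT474 breast cancer cells that carried 1 of 2 transcript variants of the long non-coding RNA NR2F1-AS1. The set holds 10 genes of the 43317 gene names on the arrays: the chaperones HSPA1A, HSPA1B, HSPA6, HSPA8, HSPH1, DNAJB1, HSP90AA1 and HSPB1, the co-chaperone BAG3, and HSF1, the transcription factor of the heat shock response. The genes were chosen with earlier results of these data known, so shares of the set are a description and not independent evidence. Their probes were found by gene name, which gave 18. Every probe was kept apart, and all 18 were well above background on all 6 arrays.

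BT474 is an established human breast cancer line that is positive for the estrogen receptor and for HER2. There were 3 groups of 2 arrays each. Control cells carried the empty pcDNA3.1 plasmid, BT474-Var1 cells carried pcDNA3.1 with NR2F1-AS1 variant 1, and BT474-Var4 cells carried pcDNA3.1 with NR2F1-AS1 variant 4. All 3 were grown at the same temperature in the same serum-supplemented medium, and the labels name no heat treatment of the cells. Per the methods, the plasmids were introduced by nucleofection and the transfected cells were stable populations that had passed antibiotic selection, with the variant-bearing cells grown from surviving colonies. The plasmid backbones of the variants differed (hygromycin resistance for variant 1, an eGFP cassette for variant 4), and which empty backbone the Control arrays stand for was not given. Nothing in the labels says that the 2 arrays of a group came from separate cultures, so the p-values measure the spread between these arrays, which may be technical. The question put to these genes was whether each variant changed the heat shock protein transcripts, and whether the variants differed from each other.

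Heat shock proteins are chaperones: they bind unfolded or newly made proteins, keep them from clumping and help them fold. HSP70 proteins (the HSPA genes) work in a cycle with J-domain proteins such as DNAJB1, which deliver the client, and with exchange factors such as HSPH1 and BAG3, which release it, and HSP90 then finishes many signaling proteins, among them HER2 and the steroid receptors. HSF1 is held inactive in unstressed cells. On stress it forms trimers and binds the heat shock element, inverted repeats of a short GAA unit, in front of the chaperone genes. In many breast cancers these chaperones are abundant without heat.

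To show what the probes read and what lies in front of the genes, sequences of both are given first. Whether the changes go with the upstream matches was not tested. Upstream windows of 250 bases before the start site were taken from RefSeq (GRCh38.p14), and those of 9 of the 10 genes were used here. They were searched for a pair of inverted units, GAANNTTC or TTCNNGAA, which covers both strands because each reads the same on either. A pair stood in 11.6% of the 35116 RefSeq windows, and 3 units in a row, alternating in direction, in 0.441%. HSPA6 held 3 pairs including a run of 3 units, HSPA1A and HSPA1B 1 pair each, HSPB1 1 pair, HSPA8 4 pairs with a run of 3 units, HSP90AA1 3 pairs with such a run in 1 of its 2 windows, and DNAJB1 2 pairs in 1 of its 3 windows. BAG3 and HSPH1 had no match in their windows, which says only that these letters are not there. In the windows of HSPA6 (chr1:161524290-161524539, plus strand), HSPA1A (chr6:31815293-31815542, plus strand), HSP90AA1 (chr14:102087045-102087294, minus strand) and DNAJB1 (chr19:14518398-14518647, minus strand) below, read 5′ to 3′ toward the gene, the capitals mark the matches.
HSPA6 upstream: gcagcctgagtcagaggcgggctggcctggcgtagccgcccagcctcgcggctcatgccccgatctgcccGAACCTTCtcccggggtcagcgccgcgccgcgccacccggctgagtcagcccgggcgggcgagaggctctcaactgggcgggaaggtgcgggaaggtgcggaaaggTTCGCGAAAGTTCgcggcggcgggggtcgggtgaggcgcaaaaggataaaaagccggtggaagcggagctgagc
HSPA1A upstream: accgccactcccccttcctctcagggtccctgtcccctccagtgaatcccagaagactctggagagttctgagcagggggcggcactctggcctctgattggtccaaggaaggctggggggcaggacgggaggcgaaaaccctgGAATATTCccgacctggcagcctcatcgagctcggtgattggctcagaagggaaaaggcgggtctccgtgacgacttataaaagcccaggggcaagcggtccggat
HSP90AA1 upstream: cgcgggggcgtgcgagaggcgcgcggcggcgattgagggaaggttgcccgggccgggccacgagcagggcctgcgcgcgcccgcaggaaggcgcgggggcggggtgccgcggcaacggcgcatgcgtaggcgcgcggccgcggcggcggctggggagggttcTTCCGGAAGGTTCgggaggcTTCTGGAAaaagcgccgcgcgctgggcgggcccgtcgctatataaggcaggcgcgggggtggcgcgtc
DNAJB1 upstream: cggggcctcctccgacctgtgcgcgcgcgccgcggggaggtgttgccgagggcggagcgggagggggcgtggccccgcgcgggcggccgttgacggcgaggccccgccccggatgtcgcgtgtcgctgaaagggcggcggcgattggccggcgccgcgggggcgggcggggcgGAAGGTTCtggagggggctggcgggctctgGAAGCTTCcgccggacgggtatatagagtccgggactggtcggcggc
Counted in bases from the start site, the matches began at -180, -74 and -69 in HSPA6, at -106 in HSPA1A, at -88, -83 and -68 in HSP90AA1, and at -77 and -47 in DNAJB1.

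Probes were 60 bases long and are placed on hg19 by the array's own annotation. The probes below carry the gene names of the array design, and their sequences are shown because the results below turn on them.
HSPA6 A_23_P114903 (chr1:161577785-161577844, plus strand): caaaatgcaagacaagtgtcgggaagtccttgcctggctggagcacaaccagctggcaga
HSPA6 A_33_P3382331 (chr1:161576964-161577023, plus strand): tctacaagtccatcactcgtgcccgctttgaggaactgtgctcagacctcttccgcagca
HSPA8 A_33_P3390758 (chr11:122929478-122929537, minus strand): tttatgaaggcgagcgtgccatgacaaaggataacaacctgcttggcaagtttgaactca
HSP90AA1 A_23_P162874 (chr14:102549453-102549512, minus strand): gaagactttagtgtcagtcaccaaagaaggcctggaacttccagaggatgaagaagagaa
HSP90AA1 A_32_P199252 (chr14:102550163-102550222, minus strand): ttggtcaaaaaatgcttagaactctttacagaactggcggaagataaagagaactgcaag
BAG3 A_23_P47077 (chr10:121436388-121436447, plus strand): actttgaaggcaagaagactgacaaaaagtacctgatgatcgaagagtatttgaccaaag
Both HSPA6 probes were listed by the array design for 2 genes, HSPA6 and its transcribed pseudogene HSPA7, while each of the other 16 probes was listed for 1 gene. On hg19 the array placed them after its FCGR2C probe and before its FCGR2B probes, which in RefSeq's gene order is where HSPA7 stands, HSPA6 lying between FCGR2A and FCGR3A. No probe carried the name HSPA7. The values under the name HSPA6 are therefore those of HSPA6 and HSPA7 together.

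Most of these genes moved in opposite directions in the cells with variant 1 and in those with variant 4. Relative to Control, 13 of the 18 probes (9 genes) were lower in BT474-Var1 and 14 of 18 (8 genes) were higher in BT474-Var4. HSPB1 counts as lower only through probe A_33_P3353242, and its other probes passed as higher in BT474-Var1. The widest spread was that of HSPA6, 4.99-fold lower in BT474-Var1 and 2.79-fold higher in BT474-Var4 on 1 of its 2 probes. Transcripts of the inducible HSP70 genes HSPA1A and HSPA1B, of HSPH1 and of BAG3 followed the same order, HSPA8 passed as lower in BT474-Var1 and did not pass in BT474-Var4, and no probe of HSF1 passed in any comparison, although some did under other processing. Levels are log2 of the processed intensity after subtraction of the array's 75th percentile, so that 0 is the 75th percentile, and a difference of 1 is 2-fold. A level can be compared between arrays for 1 probe but not between probes. A probe passed where limma's Benjamini-Hochberg adjusted p over all 31866 tested probes was under 0.05.

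Across all tested probes, 20.3% passed as lower and 14.1% as higher in BT474-Var1 than in Control. Of the 18 probes of the heat shock genes, 72.2% passed as lower and 11.1% (2 probes, both of HSPB1) as higher. A change of at least 2-fold was passed by 3 of the 18 against 3.95% of all probes. With normexp background correction in place of the processed signal, the share of all probes past 2-fold was 0.54% in BT474-Var1, 0.48% in BT474-Var4 and 1.14% between the variants, and 3, 5 and 10 of the 18 probes were past it. In BT474-Var4 against Control the background was 9.86% higher and 14.3% lower, and of the heat shock probes 77.8% were higher and 0 lower, with 6 of 18 past 2-fold against 3.18% of all probes. Between the variants, 13 of 18 were higher in BT474-Var4 and 0 lower, against 20.4% and 20.8% of all probes, and 11 of 18 were past 2-fold against 6.88%. These shares of all probes include dim ones, while the 18 were well above background on all 6 arrays. Of the 26742 probes that were so, 11596 passed in BT474-Var1 (4489 higher), 8712 in BT474-Var4 (3625 higher) and 12942 between the variants (6895 higher). In the same order, 2.52%, 2.13% and 4.54% of them were past 2-fold. The median change over the 18 probes was -0.66 in BT474-Var1 and 0.45 in BT474-Var4, on the log2 scale, where the medians of all tested probes were -0.04 and -0.08. On 13 probes of 9 genes both BT474-Var1 arrays lay below both Control arrays and these below both BT474-Var4 arrays, an order that 9.17% of 31807 probes showed. HSPB1 is among these genes only through probe A_33_P3353242. The comparisons share the Control arrays. Without Control array A or without Control array B, 7 of the 14 probes still passed in BT474-Var4 against Control, which was 9 and 8 without BT474-Var4 array A and B.

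**Figure D1:**
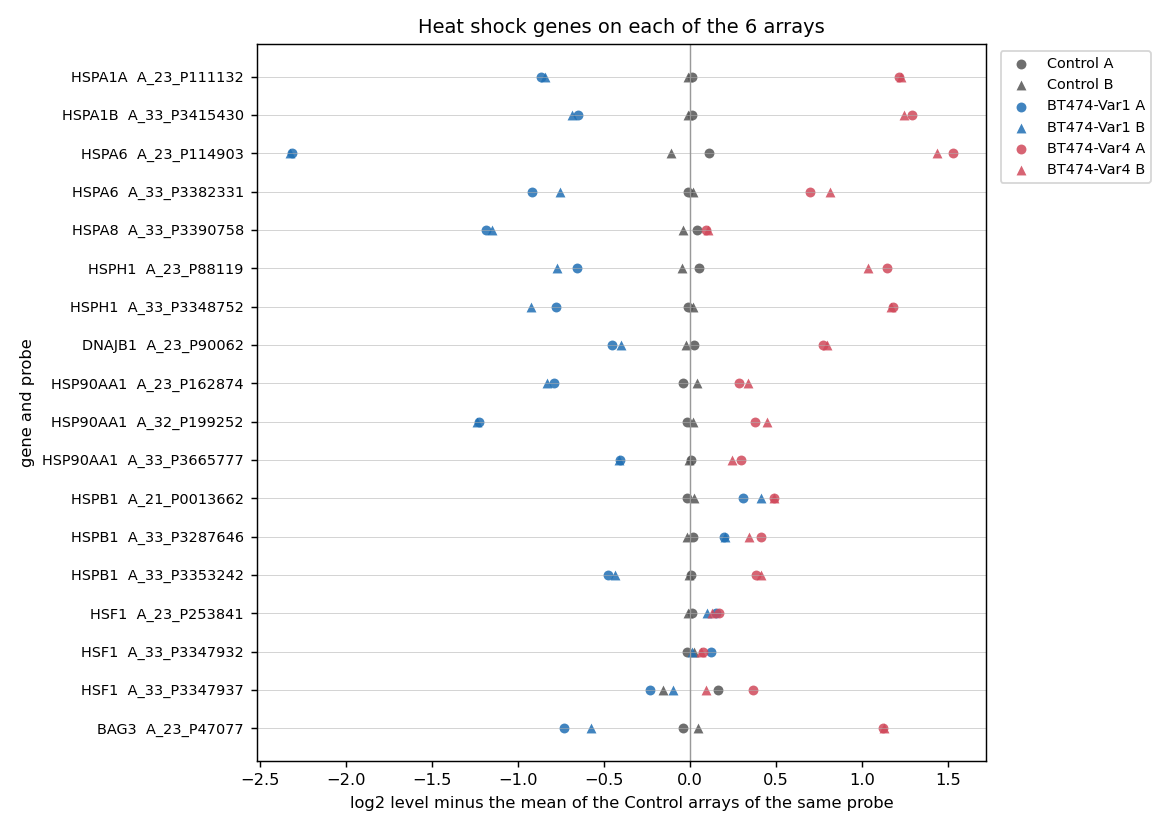
Level of each of the 18 probes on each of the 6 arrays, as log2 level minus the mean of that probe's 2 Control arrays; circles are arrays A, triangles arrays B, and color gives the group. HSPA6 probe A_23_P114903 spans the widest range, BT474-Var1 lies to the left and BT474-Var4 to the right of Control for 13 probes, and the 2 brighter HSF1 probes lie closer to 0 than the dim one, A_33_P3347937.

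The stress-inducible HSP70 genes HSPA1A and HSPA1B lie next to each other on chromosome 6 and encode nearly the same protein, and their transcripts rise steeply on heat. HSPA1A was at 7.36 and 7.33 on the Control arrays, 6.48 and 6.50 in BT474-Var1, and 8.56 and 8.57 in BT474-Var4. HSPA1B was at 5.70 and 5.68 in Control, 5.04 and 5.00 in BT474-Var1, and 6.98 and 6.94 in BT474-Var4. For both genes the 3 groups did not overlap, with BT474-Var1 lowest and BT474-Var4 highest. HSPA1A fell by 0.85 on the log2 scale in BT474-Var1 (SE 0.0480, adjusted p = 0.00306) and rose by 1.22 in BT474-Var4 (adjusted p = 0.00240). HSPA1B was 1.59-fold lower in BT474-Var1 (adjusted p = 0.00407) and 2.41-fold higher in BT474-Var4 (adjusted p = 0.00243). Between the variants the difference was 4.21-fold for HSPA1A and 3.82-fold for HSPA1B. The HSPA1A probe was spotted 10 times on each array, and the SD over those spots was 0.0498 to 0.0634 on the log2 scale, which is technical spread within an array and not spread between cultures.

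HSPA6, also called HSP70B′, is an HSP70 gene that most unstressed cells hardly express. On probe A_23_P114903 it was at 0.94 and 0.72 in Control, -1.48 and -1.49 in BT474-Var1, and 2.36 and 2.27 in BT474-Var4. On probe A_33_P3382331, 821 bases farther from the 3′ end, it was at -0.97 and -0.94 in Control, -1.88 and -1.71 in BT474-Var1, and -0.26 and -0.14 in BT474-Var4. Both probes kept the groups apart in the same order, with a smaller span on the second. The first probe changed by -2.32 in BT474-Var1 (95% confidence interval -2.56 to -2.08, adjusted p = 0.00235) and by 1.48 in BT474-Var4 (1.24 to 1.73, adjusted p = 0.00378), and the second by -0.84 (-1.06 to -0.62) and 0.75 (0.53 to 0.97). Between the variants the first probe differed 13.9-fold and the second 3.01-fold (adjusted p = 0.000803 and 0.00135). With normexp background correction, the change in BT474-Var1 was -1.35 on the first probe and -0.30 on the second, and in BT474-Var4 1.26 and 0.44. Between the variants the log2 difference was then 2.61 in place of 3.80 on the first probe and 0.74 in place of 1.59 on the second, all with the same direction and call. Without Control array A or B the second probe no longer passed in BT474-Var4 (adjusted p = 0.0609 and 0.0586).

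HSPA8 is the constitutive HSP70 of the cytosol, made at high level in nearly every cell with or without stress. It was at 6.97 and 6.89 in Control, 5.74 and 5.78 in BT474-Var1, and 7.02 and 7.03 in BT474-Var4. BT474-Var1 thus lay apart from the other groups, while BT474-Var4 lay close above Control. HSPA8 was 2.25-fold lower in BT474-Var1 (adjusted p = 0.00277), and the BT474-Var4 difference of 0.10 from Control did not pass (adjusted p = 0.260, 95% confidence interval -0.05 to 0.24). The upper end of that interval lies below the intervals of HSPA1A and HSPA1B in the same comparison, 1.09 to 1.35 and 1.13 to 1.40.

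HSPH1 encodes HSP105, a large relative of HSP70 that exchanges its nucleotide and holds unfolded clients. Probe A_23_P88119 was at 6.72 and 6.62 in Control, 6.01 and 5.89 in BT474-Var1, and 7.81 and 7.71 in BT474-Var4. Probe A_33_P3348752, 713 bases farther from the 3′ end, was at 4.56 and 4.59, 3.80 and 3.66, and 5.76 and 5.74. Here the 2 probes gave nearly the same changes. HSPH1 was 1.64-fold and 1.81-fold lower in BT474-Var1 on the 2 probes (adjusted p = 0.00613 and 0.00414) and 2.13-fold and 2.25-fold higher in BT474-Var4 (adjusted p = 0.00447 and 0.00333).

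BAG3 joins HSP70 to small heat shock proteins and steers clients to autophagy. It was at 0.61 and 0.70 in Control, -0.08 and 0.07 in BT474-Var1, and 1.77 and 1.78 in BT474-Var4. No array of 1 group reached into another. BAG3 was 1.58-fold lower in BT474-Var1 (adjusted p = 0.00684) and 2.18-fold higher in BT474-Var4 (adjusted p = 0.00411).

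DNAJB1 is the inducible HSP40, the J-domain partner of HSPA1A and HSPA8. Its levels were 4.87 and 4.82 in Control, 4.39 and 4.44 in BT474-Var1, and 5.61 and 5.64 in BT474-Var4. The order was that of HSPA1A, with a smaller fall. DNAJB1 was 1.35-fold lower in BT474-Var1 (adjusted p = 0.00761) and 1.72-fold higher in BT474-Var4 (adjusted p = 0.00411). Its fall in BT474-Var1 was -0.28 after quantile normalization, and did not pass without Control array A (adjusted p = 0.0507).

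HSP90AA1 encodes the inducible HSP90, and its 3 probes fell in BT474-Var1 by different amounts. Probe A_33_P3665777, the nearest to the 3′ end, was at 9.82 and 9.81 in Control, 9.40 and 9.40 in BT474-Var1, and 10.11 and 10.06 in BT474-Var4. Probe A_23_P162874, 2058 genomic bases upstream of it, was at 8.68 and 8.76, 7.93 and 7.89, and 9.01 and 9.06, and probe A_32_P199252, 2768 bases upstream, at 7.29 and 7.32, 6.08 and 6.07, and 7.68 and 7.75. All 3 put the groups in the same order without overlap. The change in BT474-Var1 was -0.41 on the probe nearest the 3′ end (95% confidence interval -0.54 to -0.28), -0.81 on the middle probe (-0.97 to -0.66) and -1.23 on the farthest (-1.37 to -1.09), each of which passed. In BT474-Var4 the changes were 0.27, 0.31 and 0.41, with adjusted p of 0.0259, 0.0273 and 0.0127. These smaller rises did not pass with 1 array left out in several cases. Without Control array A the adjusted p was 0.110, 0.121 and 0.0742, and without Control array B 0.119, 0.0857 and 0.0698. The first and the middle probe also did not pass without BT474-Var4 array A (0.0938 and 0.0776), and all 3 did not without BT474-Var4 array B (0.0772, 0.106 and 0.0591). With 1 BT474-Var1 array left out, which leaves the values as they are, they missed it at 0.0553 and 0.0560. Quantile normalization gave 0.43 and 0.49 for those 2 probes.

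**Figure D2:**
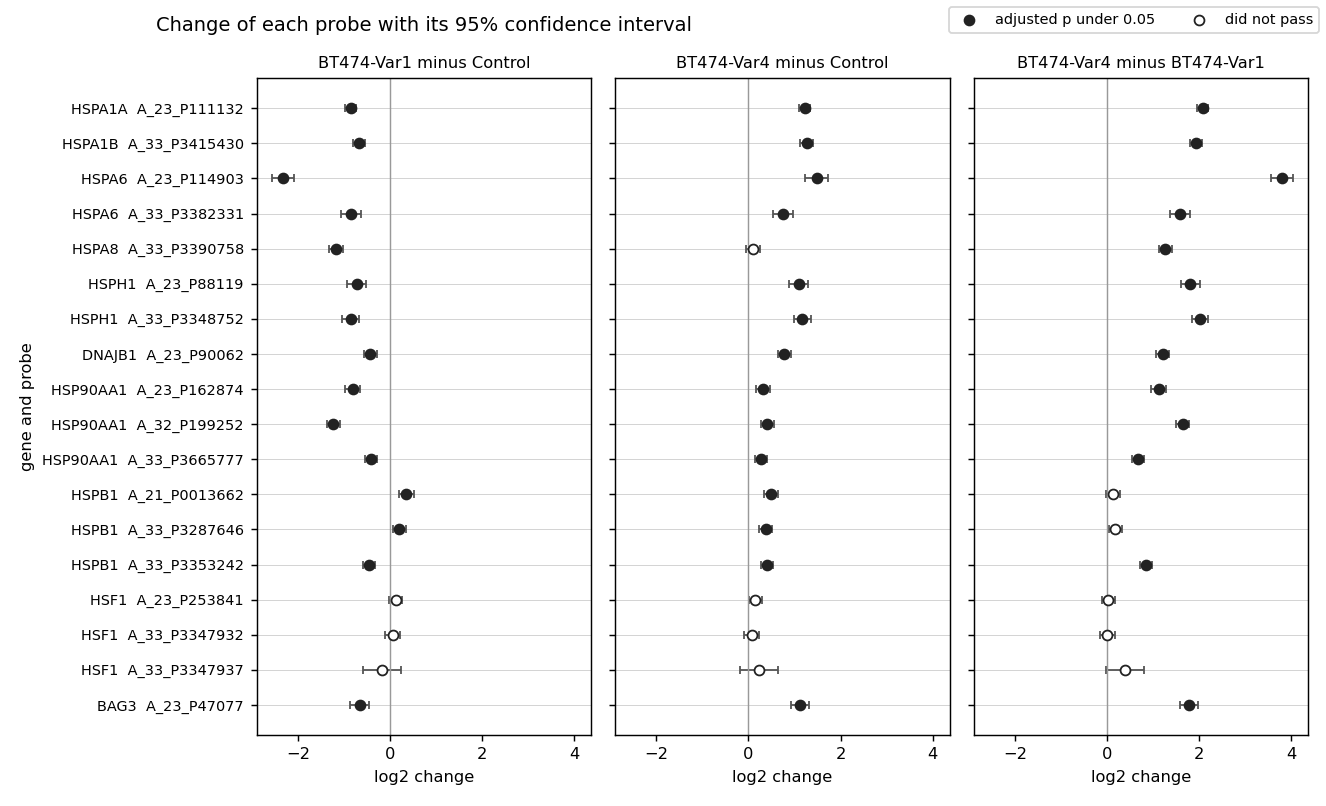
Log2 change of each of the 18 probes in the 3 comparisons, with 95% confidence intervals from the limma fit; filled points passed at an adjusted p under 0.05 and open points did not. The 3 HSP90AA1 probes differ from each other in BT474-Var1, HSPA8 is open in BT474-Var4, and 2 of the 3 HSPB1 probes lie to the right of 0 in both variants.

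HSPB1, or HSP27, is a small heat shock protein that binds unfolded clients without ATP, and it was the exception among the chaperones. Probe A_21_P0013662 was at 8.18 and 8.22 in Control, 8.51 and 8.61 in BT474-Var1, and 8.69 and 8.68 in BT474-Var4. Probe A_33_P3287646, 99 bases nearer the 3′ end, was at 8.80 and 8.77, 8.98 and 8.99, and 9.20 and 9.13. On both, each variant lay above Control. They rose 1.28-fold and 1.15-fold in BT474-Var1 (adjusted p = 0.0145 and 0.0478) and 1.40-fold and 1.30-fold in BT474-Var4 (adjusted p = 0.0112 and 0.0149), and the variants did not pass as different from each other (adjusted p = 0.152 and 0.0553), but did on both probes with normexp (0.0306 and 0.00383), quantile normalization (0.0309 and 0.00896) and trend and robust estimation (0.0151 and 0.000812). The smaller rise, 0.20 in BT474-Var1, did not pass with any 1 array left out (adjusted p from 0.0667 to 0.179). That of the other probe did not without Control array A or B or BT474-Var1 array B (0.0789, 0.0653 and 0.0574).

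The third HSPB1 probe, A_33_P3353242, went the way of the other chaperones. It was at 2.30 and 2.29 in Control, 1.82 and 1.86 in BT474-Var1, and 2.68 and 2.71 in BT474-Var4. It was 1.37-fold lower in BT474-Var1 (95% confidence interval of the log2 change -0.59 to -0.32, adjusted p = 0.00622), where those of the other 2 probes lay above 0, and 1.31-fold higher in BT474-Var4 (adjusted p = 0.0120). The array design lists this probe for the HSPB1 transcript, yet it matched RefSeq's upstream window of the gene (chr7:76302423-76302672 of GRCh38.p14, plus strand) from -66 to -7, just before the start site. The window is shown with the probe in capitals.
HSPB1 upstream: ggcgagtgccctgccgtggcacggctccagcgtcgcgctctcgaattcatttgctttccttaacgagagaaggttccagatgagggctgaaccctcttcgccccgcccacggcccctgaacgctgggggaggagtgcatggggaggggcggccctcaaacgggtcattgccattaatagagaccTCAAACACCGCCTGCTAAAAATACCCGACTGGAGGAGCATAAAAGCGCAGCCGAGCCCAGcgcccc
Its single GAANNTTC match began at -182, outside the probe. What RNA the probe hybridized with was not tested. In BT474-Var4 no HSPB1 probe passed without either Control array or either BT474-Var4 array (adjusted p from 0.0507 to 0.0847).

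HSF1, the factor itself, stayed within a narrow range on its 2 brighter probes. Probe A_23_P253841 was at 6.75 and 6.73 in Control, 6.89 and 6.83 in BT474-Var1, and 6.91 and 6.86 in BT474-Var4. Probe A_33_P3347932, which overlaps it, was at 6.56 and 6.60, 6.70 and 6.59, and 6.66 and 6.64. Probe A_33_P3347937 was at -2.02 and -2.34, -2.42 and -2.28, and -1.82 and -2.09, with the groups overlapping. None passed in the fit used throughout: the changes ran from -0.17 to 0.12 in BT474-Var1 (adjusted p from 0.140 to 0.461) and from 0.07 to 0.23 in BT474-Var4 (0.107 to 0.449). For the first probe the 95% confidence interval of the BT474-Var1 change was -0.02 to 0.26, and of the BT474-Var4 change 0.01 to 0.29. That probe passed as higher in BT474-Var1 after quantile normalization, at 0.26 (adjusted p = 0.0219), and with trend and robust estimation (0.0192). It passed as higher in BT474-Var4 with normexp (0.0123) and with trend and robust estimation (0.00788). Between the variants it passed with normexp (0.00861), and the dim probe with quantile normalization (0.0411), both higher in BT474-Var4. The arrays read transcripts, and HSF1 is controlled largely at the protein.

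The rest of the chaperone network was read on lists of 101 genes in 10 groups, of which 92 were tested on 1 probe each and 11 stood in more than 1 list. In BT474-Var1, 38 of the 92 passed as lower and 5 as higher, with a median change of -0.18, where 20.3% of all tested probes were lower and 14.1% higher with a median of -0.04. In BT474-Var4, 38 passed as higher and 7 as lower, with a median of 0.21, where 9.86% of all probes were higher and 14.3% lower with a median of -0.08. Between the variants 55 were higher in BT474-Var4 and 5 lower, against 20.4% and 20.8% of all probes. The same shares are the background of each list below. They include dim probes, while each list gene was read on its brightest tested probe. With only the 26742 probes well above background on all 6 arrays, 11596 passed in BT474-Var1 (4489 higher) and 8712 in BT474-Var4 (3625 higher). Between the variants 12942 passed (6895 higher). The list genes passing were then 50, 52 and 61. Leaving out Control array A or B left 21 passing genes in BT474-Var1 in place of 43, and 14 in BT474-Var4 in place of 45. Without BT474-Var1 array A the first count was 25, and without BT474-Var4 array A or B the second was 24 or 20.

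Other known targets of HSF1 passed in 1 direction per variant. Of 20 tested, 15 passed as lower and 0 as higher in BT474-Var1, 15 as higher and 0 as lower in BT474-Var4, and between the variants 19 were higher with variant 4. Their median changes were -0.51 and 0.45. CRYAB, the small heat shock protein alpha-B crystallin, was at -1.98 and -1.80 in Control, -2.71 and -2.22 in BT474-Var1, and 0.555 and 0.522 in BT474-Var4. It was 5.39-fold higher in BT474-Var4 (adjusted p = 0.00484), and its -0.57 in BT474-Var1 did not pass (0.0708). HSPA4L, an HSP110 relative of HSPH1, was 3.52-fold higher in BT474-Var4 (adjusted p = 0.00311) with -0.32 in BT474-Var1 (0.0545). The CRYAB and HSPA4L probes were dim in Control and BT474-Var1, which limits how well these fold sizes are known. HSP90AB1, the constitutive HSP90, was at 6.43 and 6.39 in Control, 5.46 and 5.41 in BT474-Var1, and 6.88 and 6.94 in BT474-Var4. Unlike HSPA8, it passed in both directions, 1.96-fold lower and 1.41-fold higher (adjusted p = 0.00306 and 0.00902).

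Partners of HSP70 and HSP90 were mixed. Of the other HSP70 and HSP110 genes 4 of 7 tested were lower in BT474-Var1 and 3 higher and 2 lower in BT474-Var4. HSPA1L, next to HSPA1A on chromosome 6, rose in BT474-Var4 by 1.07. HSPA2, a gene singled out after its values were seen, was lower in both, by -0.67 and -0.91 (adjusted p = 0.0172 and 0.0128). Among 14 J-domain genes, 6 passed as higher in BT474-Var4 and 0 lower, and 5 as lower and 3 higher in BT474-Var1. DNAJB4 rose by 1.37, DNAJC6, which uncoats clathrin vesicles, by 1.29 and DNAJA4 by 1.05 in BT474-Var4. In BT474-Var1 DNAJA4 passed as lower (-0.27, adjusted p = 0.0247), while DNAJB4 (-0.26) and DNAJC6 (-0.05) did not pass. Of the HSP90 co-chaperones and HSP90AB1, 7 of 13 were lower in BT474-Var1 and 2 higher, with PPID, a cyclophilin, at -0.91 and CHORDC1 at -0.65. In BT474-Var4 4 of the 13 were higher, PPID (0.55) and CHORDC1 (0.68) among them, and 2 lower. The 2 higher in BT474-Var1 and the 2 lower in BT474-Var4 are near the background. Exchange factors and HSP70 adaptors had 1 of 10 lower in BT474-Var1, below the background share. It was STIP1, the protein that bridges HSP70 and HSP90 (-0.33, adjusted p = 0.0482). In BT474-Var4 3 were higher, STIP1 among them at 0.87, and 1 lower, the latter near the background.

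The remaining lists hold the small heat shock proteins, the folding ring, chaperones of other compartments and the regulators of HSF. The small heat shock proteins beside HSPB1 had 2 of 5 lower in BT474-Var1 and 2 higher in BT474-Var4, with HSPB8, the partner of BAG3, at -0.67 and 0.42. Of the 8 subunits of the chaperonin TRiC, 2 were lower in BT474-Var1, near the background, and 5 higher in BT474-Var4. Their median changes were -0.14 and 0.28. In mitochondria 3 of 8 were lower in BT474-Var1 and 2 higher in BT474-Var4, and HSPD1, the mitochondrial HSP60, was at 8.83 and 8.83 in Control, 8.27 and 8.25 in BT474-Var1, and 9.23 and 9.18 in BT474-Var4. In the endoplasmic reticulum 6 of 10 were lower in BT474-Var1 and 3 higher in BT474-Var4. HSPA5, the HSP70 of that compartment, was at 2.98 and 2.96 in Control, 2.86 and 2.84 in BT474-Var1, and 4.02 and 3.92 in BT474-Var4. It was 2.01-fold higher in BT474-Var4 (adjusted p = 0.00333) and did not pass in BT474-Var1 (0.179). SERPINH1, the collagen chaperone and also an HSF1 target, changed by -0.75 and 0.72, and DNAJB11, a J-domain partner of HSPA5, by -0.65 and 0.43. Of 8 tested genes in the family and regulators of HSF, 2 were lower in BT474-Var1 and 3 were higher and 2 lower in BT474-Var4, of which both counts of lower genes are near the background. HSF2, another heat shock factor, was at 2.76 and 2.74 in Control, 2.80 and 2.75 in BT474-Var1, and 3.02 and 2.97 in BT474-Var4, a rise of 0.25 in BT474-Var4 (adjusted p = 0.0364).

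**Figure D3:**
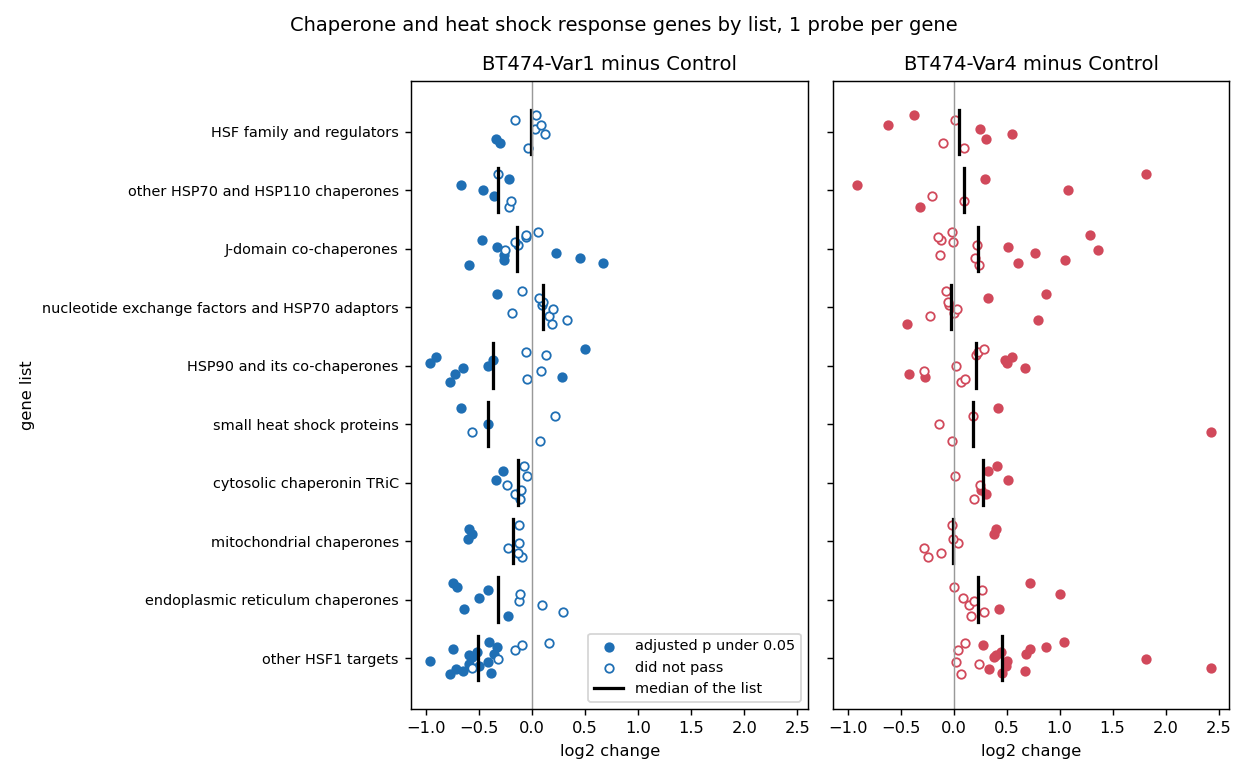
Log2 change of each tested gene, 1 probe per gene, in 10 lists of the chaperone network, for BT474-Var1 (left) and BT474-Var4 (right) against Control; filled points passed, open points did not, and the black bar is the median of the list. The other HSF1 targets have medians of -0.51 and 0.45, with no filled point on the opposite side, while the exchange factors and adaptors lie around 0.

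Genes whose pattern over the 6 arrays was most like that of HSPA6 probe A_23_P114903 were sought outside the set. The search took in 18998 probes of RefSeq-named genes that were well above background on all arrays. All heat shock genes of the set were left out of it. Each probe was centred on its own mean, and likeness was the root mean square difference over the 6 arrays. The closest was CXCL14, a secreted chemokine, at 0.326 on the log2 scale, with levels of 4.38 and 4.32 in Control, 2.83 and 2.80 in BT474-Var1, and 6.14 and 6.12 in BT474-Var4. TGFBI, a matrix protein induced by TGF-beta, followed at 0.365, then NKAIN1 at 0.432, the glycosyltransferase gene GALNT14 at 0.465 and NAV2 at 0.608. None of the 5 is a chaperone gene, but the chaperone genes of the set could not appear among them.

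**Figure D4:**
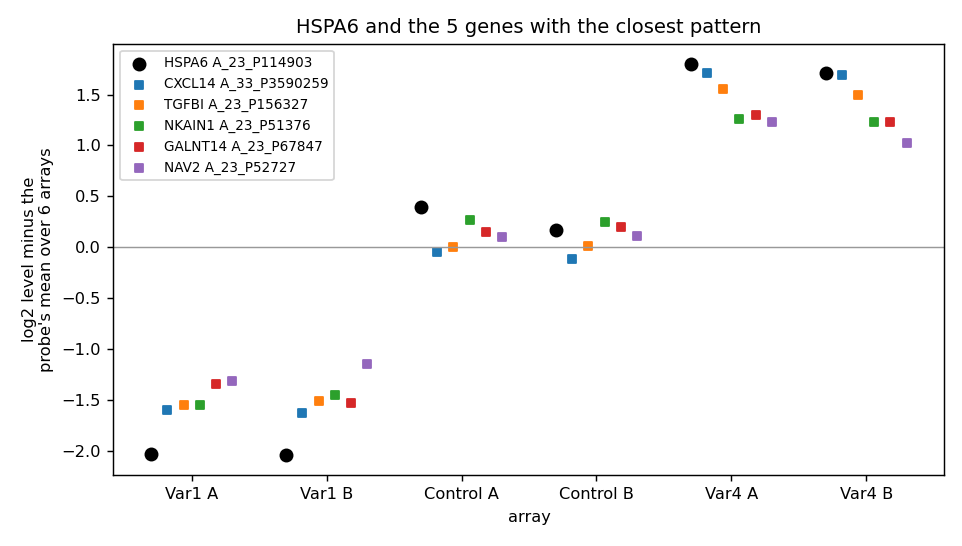
Level of HSPA6 probe A_23_P114903 (black circles) and of the 5 genes outside the set with the closest pattern (colored squares) on each array. Values are log2 level minus the probe's mean over the 6 arrays. All 6 are lowest on the BT474-Var1 arrays and highest on the BT474-Var4 arrays, and HSPA6 lies lowest of them in BT474-Var1.

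The transfected transcript and the cell type were checked on the same arrays. NR2F1-AS1 probe A_19_P00320140 exceeded its Control level, which was not well above background, at least 15.1-fold in BT474-Var1 (adjusted p = 0.00233). Probe A_24_P51080 was at 1.67 and 1.5 in BT474-Var4 against -6.42 and -4.25 in Control (adjusted p = 0.00846). The former did not pass in BT474-Var4 (0.189), nor the latter in BT474-Var1 (0.407). Probe A_22_P00006111 passed in both variants (0.0134 and 0.00411), and A_22_P00006112 in BT474-Var1 (0.00341) but not in BT474-Var4 (0.642). Except for A_19_P00320140, each of these probes was well above background on 1 Control array. All 9 luminal epithelial markers, ERBB2 and ESR1 among them, were well above background on all 6 arrays. The fibroblast markers COL1A2 and COL3A1 were so on no array, and of the other 8 markers of fibroblasts, leukocytes and endothelium with a probe, 6 were on all arrays. Summed over its genes, as signal relative to the 75th percentile, the fibroblast list was 3.10 to 3.12 in Control, 3.63 to 3.73 in BT474-Var1 and 5.21 to 5.31 in BT474-Var4, where COL1A1 was higher by 1.03. The leukocyte list was 1.09 to 1.26 over all arrays, and the endothelial list 1.77 to 1.89 in BT474-Var1 against 2.43 to 2.78 in the others. The luminal list summed to 2130 to 2160 in Control, 2670 to 2710 in BT474-Var1 and 2080 to 2090 in BT474-Var4. In BT474-Var1 KRT19 (0.62), KRT8 (0.32) and ERBB2 (0.22) passed as higher and EPCAM (-0.66), FOXA1 (-0.50) and CDH1 (-0.47) as lower, and in BT474-Var4 ESR1 (-0.47) and FOXA1 (-0.40) as lower. The part of these markers in the results was not tested. All 6 arrays lay on 1 slide and were scanned together, with 49.7% to 59.1% of spots well above background and 0 saturated. Both BT474-Var1 arrays stood in column 2 of the slide and the other 4 in column 1, so that column and variant 1 cannot be told apart. The Control arrays stood in rows 1 and 2 and the arrays of both variants in rows 3 and 4. Row and the difference of either variant from Control thus cannot be told apart. In such bulk RNA, fewer cells with a transcript and less of it per cell cannot be told apart either.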

How the data were processed

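Total RNA of Control, BT474-Var1 and BT474-Var4 cells (2 arrays each) was labeled with Cy3 and read on Agilent one-color arrays. Spot quantification by the authors used Feature Extraction 11.5.1.1, which subtracts background, and they shifted each array to its 75th percentile in GeneSpring. The deposited scanner files hold spot intensities on a linear scale, not normalized between arrays, and the deposited table holds log2 values after the shift. Which array design was used differed between the methods and the file headers, and the probe names and sequences of the files were used.

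From the processed intensities, spots flagged as outliers and control spots were left out and log2 was taken. The array's 75th percentile over 58201 probes was subtracted, and the log2 values of the spots of a probe were averaged. The values lay within a median of 0.00716 of the deposited table. A probe entered the test if 1 group or more had it well above background on its 2 arrays (31866 probes, 24627 gene names), and was fitted with limma 3.58.1 in R 4.3.3, as group means over all 6 arrays with empirical Bayes moderation (3 residual degrees of freedom, prior 1.53). Adjusted p-values are Benjamini-Hochberg over all tested probes. Having 2 arrays per group limits the precision. The methods' one-way analysis of variance was run as an alternative. The scripts were tested on simulated data. Members, gene lists and alternatives were chosen with earlier results of these data known. Of the lists, genes past 2-fold in any comparison were named, up to 3 per list, with 6 fixed genes (HSPA5, HSP90AB1, HSPD1, HSF2, CRYAB and STIP1). Each list gene was read on 1 probe, the brightest of those tested. Alternatives were the deposited table, quantile normalization, normexp (offset of 50), dropping the dim-probe filter or asking for all 6 arrays, a block on the replicate letter, eBayes with trend and robust estimation, only the groups compared, another probe per gene and each array left out. Figures were drawn with matplotlib 3.10.9 under Python 3.11.15.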

Additional observations from a re-analysis of the deposited data

How the results depend on the processing

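None of the changes of the 18 probes that passed reversed in direction. Over 810 pairs of a probe's change and an alternative, 738 kept their call, 58 lost it and 14 gained one, all 14 on probes of HSF1 or HSPB1. Between the variants, all 13 probes that passed kept the call under every alternative run. In BT474-Var1 against Control 10 of 15 did, and in BT474-Var4 against Control 7 of 14 (HSPA1A, HSPA1B, HSPA6 A_23_P114903, both HSPH1 probes, BAG3 and DNAJB1).

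With no filter on dim probes, which tests 58201 probes in place of 31866, the probes that passed in BT474-Var4 fell from 14 to 7, and the list genes that passed were 15 in BT474-Var1, 8 in BT474-Var4 and 37 between the variants, in place of 43, 45 and 60. Leaving out 1 array gave 12 to 14 of the 18 probes in BT474-Var1, 7 to 12 in BT474-Var4 and 13 to 13 between the variants, and 3 to 3, 6 to 6 and 11 to 11 past 2-fold. For the list genes it gave 21 to 35 in BT474-Var1, 14 to 37 in BT474-Var4 and 45 to 56 between the variants. An arm left with 1 array is assumed to vary like the others.

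The letters A and B gave correlations of deviations between same-lettered arrays of 0.045, -0.012 and -0.015. No pattern shared by same-lettered arrays was thus seen over the tested probes. Whether the letters mark a shared culture or day cannot be shown this way, and the labels do not say. With the replicate block, 14, 12 and 13 probes passed in BT474-Var1, BT474-Var4 and between the variants, in place of 15, 14 and 13, and among the list genes 35, 34 and 56. The share of all passing probes that were higher moved from 40.9% to 51.5% in BT474-Var1 and from 40.7% to 59.8% in BT474-Var4 with no filter on dim probes, where the median of all probes in BT474-Var1 was 0.12. It was 52.4% and 53.9% in BT474-Var4 without Control array A and B. All probes passing numbered 10963, 7711 and 13118 in the 3 comparisons, against 2672, 722 and 5112 with no filter and 4172 to 9407, 1502 to 5473 and 8088 to 10691 with 1 array left out. The lowest of these were without Control array A, without Control array B and without BT474-Var4 array B. With normexp, 172, 153 and 364 of all probes passed at 2-fold, in place of 1260, 1013 and 2191. Signal over background limits the second HSPA6 probe and the third HSF1 probe, the dimmest of the set. The first HSPA6 probe was dim in BT474-Var1 too, at -1.48 and -1.49. Its change there was -1.35 with normexp in place of -2.32. Among the named list genes, CRYAB, HSPA4L, DNAJB4 and HSPA2 were dim in Control as well. Their Control levels were -1.98 and -1.80, -1.42 and -1.52, -1.46 and -1.43, and -1.78 and -1.75. The sizes of their changes carry the same limit.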
